A study of Homo sapiens with 18 samples.

Results

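The genes described here are the nuclear genes whose symbols carry the NDUFA, NDUFB, NDUFS, NDUFV, COX4 to COX8, UQCR, ATP5 and SDH roots of the oxidative phosphorylation machinery. A pattern on the symbol picked 83 of the 17026 endogenous rows of the expression table. The pattern itself uses no measured value, but the members were chosen with earlier results of these data known. Sorted by what the genes encode, 74 of the 83 are subunits. Complex I has 34 of them, complex II has 4, complex III has 8, complex IV has 12 and complex V has 16. Another 7 rows are pseudogenes (ATP5A1P3, ATP5C1P1, ATP5EP2, ATP5G1P4, UQCRBP1, UQCRFS1P1 and UQCRHP2), and 2 rows, ATP5S and ATP5SL, are named like subunits without being part of the enzyme. NDUFA4 is counted with complex IV, where its protein sits, although its name is that of a complex I subunit. Of the 74 subunits, 73 passed the filter on low values; ATP5L2 did not, with 1 to 10 reads per library.

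Oxidative phosphorylation takes place in the inner mitochondrial membrane. Complex I oxidises NADH and complex II oxidises succinate; both pass electrons to ubiquinone, complex III hands them to cytochrome c, and complex IV passes them on to oxygen. Complexes I, III and IV pump protons, and complex V, the ATP synthase, uses the gradient to make ATP. A small number of subunits of every complex except II are encoded in mitochondrial DNA, and all the others are transcribed in the nucleus, by RNA polymerase II, from short and widely expressed genes. The transcription factors NRF1, the ETS factor GABP and YY1 are known to bind many of their promoters.

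The study compared 3 pancreatic ductal adenocarcinoma cell lines, BxPC-3, MiaPaCa-2 and PANC-1, each exposed for 6 h to 100 nM THZ1 or to its solvent DMSO. THZ1 binds covalently to CDK7, a kinase within TFIIH that phosphorylates RNA polymerase II, and inhibits CDK12 and CDK13 as well. All 6 groups were cultured in F12 medium with serum, β-glycerophosphate and L-ascorbic acid, and each group has 3 libraries that the series describes as biological triplicates. PolyA RNA was sequenced in stranded libraries, with ERCC spike-in RNA added to the extracted total RNA. A cell line is 1 isolate of 1 tumour, so differences between lines are differences between these 3 isolates.

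The 18 libraries held 6352482 to 20910423 reads. The authors deposited reads divided by a factor per library; times 1 common constant these values are given below as scaled units, of which 1 corresponded to 6.33 to 24.7 reads. A log2 difference is taken on log2(scaled units + 1), which understates the change of low genes, and comes with its SE and its p adjusted over the 15354 genes tested with limma. The deposited scale is neither that of equal sums nor that of the spike-ins: the median of all genes tested after THZ1 was 0.25 in BxPC-3, 0.19 in MiaPaCa-2 and -0.07 in PANC-1 on it, but -0.64, -0.85 and -0.31 with libraries scaled to equal ERCC totals (the ERCC scale), and -0.30, -0.31 and -0.07 with libraries scaled to equal endogenous sums. Replicate 1 of PANC-1 DMSO stood apart. It was the shallowest library with 6352482 reads, correlated with the other two of its group at 0.946 and 0.935 where those correlated at 0.996, and had 1.95% of its reads from mitochondrial protein genes against 4.04% and 4.05%. Many PANC-1 results are therefore given with and without it. Those for which no value without it is given, among them most values on the other scales, include it. The keratins KRT8 and KRT18 were expressed in all 18 libraries, KRT7 and CDH1 were high in BxPC-3 alone, and VIM was high in MiaPaCa-2 and PANC-1. KRT19 divided the lines otherwise, with DMSO levels of 1359 to 1525 in BxPC-3, 713 to 975 in PANC-1 and 55.4 to 65.5 in MiaPaCa-2. COL1A1, a fibroblast gene, had DMSO levels of 8.96 to 10.1 in BxPC-3, 0.766 to 1.08 in MiaPaCa-2 and 23.05 to 53.8 in PANC-1. EPCAM, PTPRC, PECAM1, INS and PRSS1 were not analysed here.

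The promoters of the subunit genes show which factors' sequences stand next to them. RefSeq promoters (GRCh38.p14) were matched by symbol or synonym for 61 of the subunit genes, with 70 promoter windows around a start. The core of the NRF1 motif, GCATGCGC, was found on either strand in 21.4% of them and in 3.05% of all 35116 promoters of the table. CCGGAAG, read by ETS factors, stood in 28.6% against 10.3%, and AAGATGGC, read by YY1, in 18.6% against 2.89%. GGGCGG of the SP1 family was in 58.6% against 45%, and TATAAA in 8.57% against 11.5%. At least 1 of the first 3 was in 52.9% of the subunit promoters and in 14.9% of all. The table holds promoters of all kinds of genes, and against protein-coding genes alone the contrast was smaller. Counted by gene, at least 1 of the 3 stood in 57.4% of the subunit genes and 23.4% of 15842 protein-coding genes, and GGGCGG in 62.3% and 64.3%. A match describes the letters, and no binding was measured here.

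The 150 bases before the start are printed for 7 genes, 5′ to 3′ on the gene's own strand, with NRF1 and ETS matches in capitals. They are 1 member of each of complexes I to IV with a match, a subunit c gene with a match (ATP5G2) beside one without (ATP5G1), and NDUFV3, the subunit that fell in BxPC-3. RefSeq now calls ATP5G2 and ATP5G1 ATP5MC2 and ATP5MC1.
NDUFS6 (complex I, chr5:1801257-1801406, plus strand): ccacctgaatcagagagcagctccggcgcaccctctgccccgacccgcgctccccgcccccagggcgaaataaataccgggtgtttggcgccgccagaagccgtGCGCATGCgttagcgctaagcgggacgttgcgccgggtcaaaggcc
SDHD (complex II, chr11:112086723-112086872, plus strand): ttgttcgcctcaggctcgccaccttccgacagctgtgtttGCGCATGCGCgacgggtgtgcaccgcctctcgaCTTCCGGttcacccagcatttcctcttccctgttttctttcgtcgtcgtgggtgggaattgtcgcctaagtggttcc
UQCRH (complex III, chr1:46303548-46303697, plus strand): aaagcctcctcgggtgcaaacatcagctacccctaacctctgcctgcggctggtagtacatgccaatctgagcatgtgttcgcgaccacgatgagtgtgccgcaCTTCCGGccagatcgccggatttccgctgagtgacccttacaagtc
COX5B (complex IV, chr2:97645912-97646061, plus strand): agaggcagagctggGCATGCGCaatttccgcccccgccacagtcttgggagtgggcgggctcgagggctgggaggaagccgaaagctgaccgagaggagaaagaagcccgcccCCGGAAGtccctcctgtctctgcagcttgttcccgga
ATP5G2 (complex V, chr12:53676084-53676233, minus strand): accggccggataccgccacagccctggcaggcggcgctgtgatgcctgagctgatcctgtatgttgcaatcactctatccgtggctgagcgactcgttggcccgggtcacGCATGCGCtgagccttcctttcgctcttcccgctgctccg
ATP5G1 (complex V, chr17:48892637-48892786, plus strand): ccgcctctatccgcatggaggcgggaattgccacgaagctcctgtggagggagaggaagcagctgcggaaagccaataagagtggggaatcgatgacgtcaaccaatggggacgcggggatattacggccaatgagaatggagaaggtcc
NDUFV3 (complex I, chr21:42893159-42893308, plus strand): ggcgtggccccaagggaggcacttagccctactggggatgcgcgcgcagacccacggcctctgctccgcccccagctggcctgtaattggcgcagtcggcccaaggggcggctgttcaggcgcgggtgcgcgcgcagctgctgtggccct

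NDUFS6 holds the NRF1 core 46 bases before the start, on the other strand, and ATP5G2 holds it 40 bases before, on its own strand. In SDHD the core is read on both strands, at 110 and 108 bases before the start, the 2 matches overlapping, and an ETS match follows at 77. UQCRH has an ETS match at 46 and no NRF1 core. COX5B has the NRF1 core at 136 and an ETS match at 37. None of these letters stand in the stretches of ATP5G1 and NDUFV3. On the deposited scale the 14 matched genes with the NRF1 core had a median response of 1.01 in BxPC-3 and 0.99 in MiaPaCa-2, and the 47 without it 1.00 and 0.99. For the ETS motif the medians were 1.13 and 1.05 with it (19 genes) and 0.98 and 0.98 without (42 genes), and for YY1 0.97 and 0.97 with it (12 genes) and 1.01 and 0.99 without (49 genes). In PANC-1 the medians with and without a match were 0.25 and -0.03 for the NRF1 core, -0.02 and 0.07 for ETS and 0.00 and 0.04 for YY1. Without DMSO replicate 1 they were 0.27 and 0.26, 0.29 and 0.26, and 0.27 and 0.26. No test was made between genes with and without a match.

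The share of reads taken by the subunits does not depend on the scale between libraries. In BxPC-3 the 74 subunits took 0.700%, 0.733% and 0.734% of endogenous reads with DMSO and 0.916%, 0.925% and 0.927% with THZ1. In MiaPaCa-2 they took 0.630%, 0.610% and 0.604% with DMSO and 0.817%, 0.787% and 0.804% with THZ1. The THZ1 libraries lay above the DMSO libraries in both lines, with a ratio of group means of 1.28 in BxPC-3 and 1.31 in MiaPaCa-2. PANC-1 had 0.674%, 0.661% and 0.621% with DMSO and 0.752%, 0.659% and 0.728% with THZ1, so the groups overlapped and the ratio was 1.09, or 1.11 without DMSO replicate 1. A share of this size is known closely from counting alone: the exact 95% binomial interval of the shallowest library, at 0.674%, ran from 0.667% to 0.680%, and it covers counting error only.

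Every complex took a larger share of reads with THZ1 in BxPC-3 and MiaPaCa-2, and complex IV had the highest ratio. Complex IV went from 0.102% ± 0.00373 (SD, n = 3) to 0.142% ± 0.00331 in BxPC-3, a ratio of 1.39, and from 0.0722% ± 0.00189 to 0.102% ± 0.00394 in MiaPaCa-2, a ratio of 1.41. Complex V had ratios of 1.33 and 1.35, complex III 1.26 and 1.29, complex I 1.20 and 1.24, and complex II, the smallest, 1.14 and 1.24. In PANC-1 the ratios were 1.04 for complex I, 1.19 for II, 1.17 for III, 1.00 for IV and 1.14 for V. Without DMSO replicate 1 they were 1.09, 1.07, 1.14, 1.14 and 1.12. That library had the highest share of complex IV of the 3 PANC-1 DMSO libraries, 0.133% against 0.0992% and 0.0907%, and the lowest share of complex II, 0.0325% against 0.0479% and 0.0462%. The subunits encoded in mitochondrial DNA had ratios of 1.48 in BxPC-3, 1.45 in MiaPaCa-2 and 1.41 in PANC-1 (1.16 without DMSO replicate 1). No test was applied to shares.

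**Figure D1:**
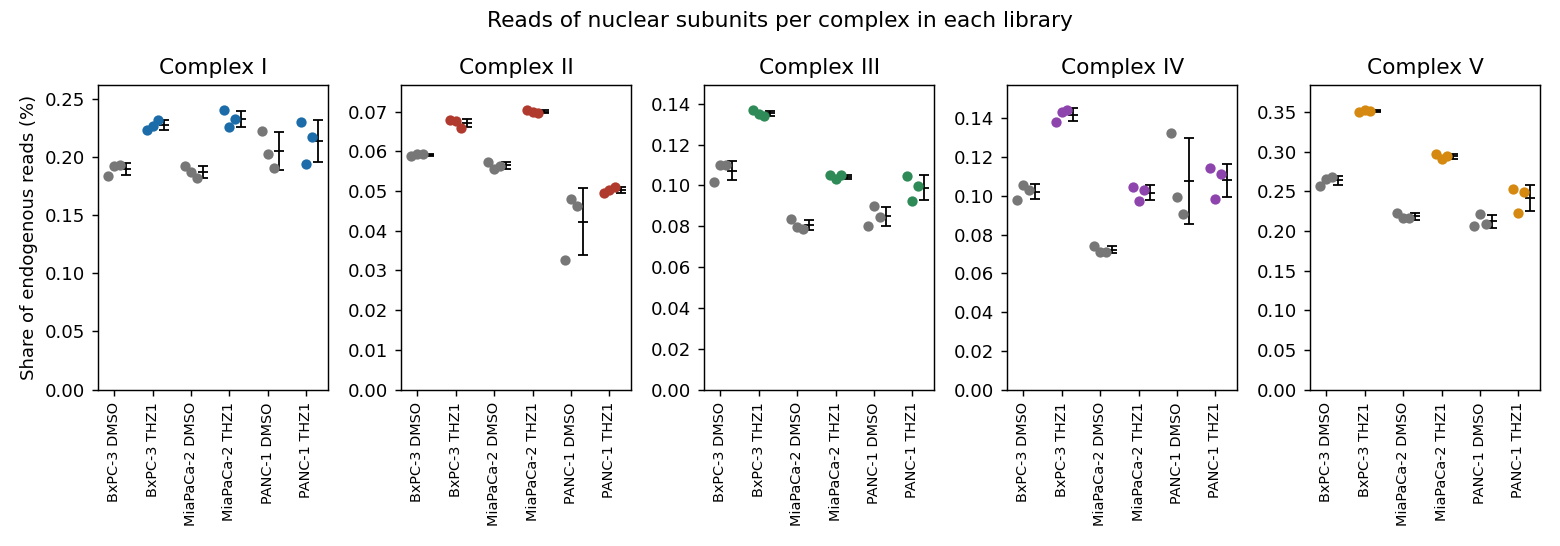
Share of endogenous reads (%) of the nuclear subunits of each complex in the 18 libraries; points are libraries, grey for DMSO and coloured for THZ1, and bars give the group mean ± SD. In BxPC-3 and MiaPaCa-2 all THZ1 points lie above all DMSO points in each of the 5 complexes, and in PANC-1 the groups overlap in complexes I and IV.

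THZ1 compared with DMSO raised 65 of the 73 tested subunits in BxPC-3 and 67 in MiaPaCa-2 on the deposited scale, and lowered 1 in each line, NDUFV3 in BxPC-3 and COX7A1 in MiaPaCa-2; on the ERCC scale the direction turned and none was raised. Over all genes tested, 40% were called higher and 18.9% lower in BxPC-3, and 36.5% and 19.8% in MiaPaCa-2. The median difference of the subunits was 1.02 in BxPC-3 and 0.99 in MiaPaCa-2, against 0.25 and 0.19 for all genes. The 3 THZ1 libraries lay above the 3 DMSO libraries for 68 subunits in each of these lines, where 51.1% and 47.6% of all genes did so, and below for 2. Measured against the median gene, 68 subunits lay above it in BxPC-3 and 69 in MiaPaCa-2, and on the ERCC scale 66 and 69.

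The scale sets the sign, and the distance from the median gene changed less. On the ERCC scale the subunit medians were -0.14 in BxPC-3 and -0.27 in MiaPaCa-2, with 0 called higher and 11 lower in each line, where 1.28% and 1.36% of all genes were called higher and 59.1% and 73.9% lower. With equal sums they were 0.30 and 0.36, with 29 higher and 5 lower in BxPC-3 (9.21% and 43% of all genes) and 38 higher and 3 lower in MiaPaCa-2 (9.35% and 43.1%). TMM factors gave medians of 0.64 and 0.76 with 58 and 65 subunits called higher, where 22.4% and 24.8% of all genes were. DESeq2 factors gave 0.74 and 0.80 with 61 and 66, where 26.5% and 26.4% of all genes were. The subunit median stood above the median gene by 0.50 to 0.77 in BxPC-3 and by 0.58 to 0.80 in MiaPaCa-2 across these scales, and by 0.09 to 0.15 in PANC-1, as the plot of medians by scale shows. Without PANC-1 DMSO replicate 1 the distance in PANC-1 was 0.24 on the deposited scale. The spike-ins were added to extracted RNA, so an amount per cell was not measured, and in bulk samples fewer cells and less RNA per cell cannot be told apart.

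**Figure D2:**
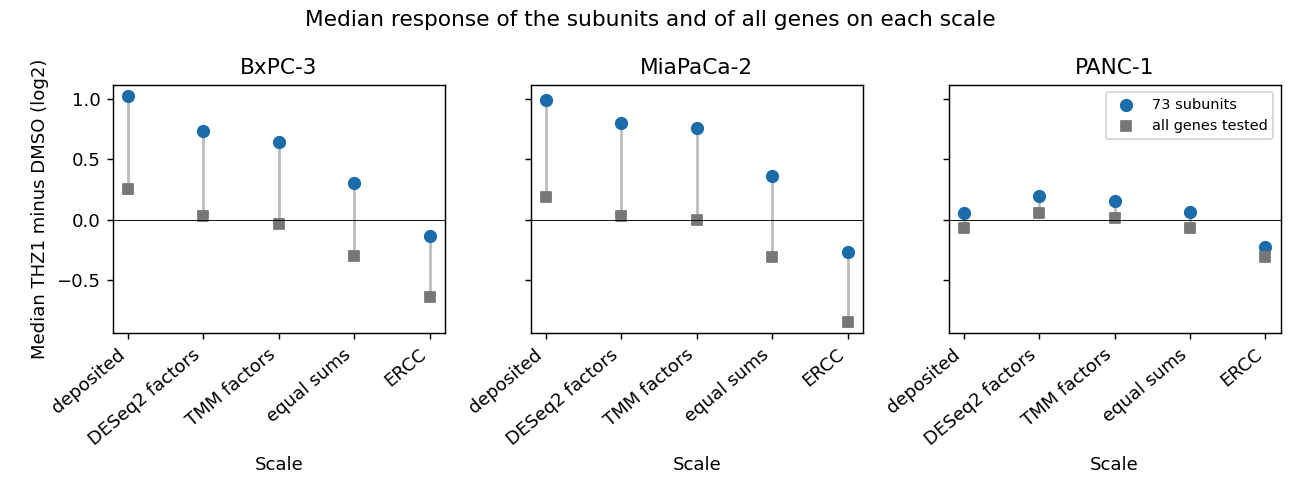
Median log2 difference, THZ1 minus DMSO, of the 73 subunits (circles) and of all genes tested (squares) on 5 scales, by line. In BxPC-3 and MiaPaCa-2 the subunits lie above the median gene on each scale while their own sign turns from 1.02 and 0.99 on the deposited scale to -0.14 and -0.27 on the ERCC scale; in PANC-1 the 2 medians lie 0.09 to 0.15 apart with all libraries.

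Complex I is the largest of the 5, with core subunits that carry out its reaction and supernumerary subunits around them. On the deposited scale 29 of its 34 subunits rose in each line, with medians of 0.97 in BxPC-3 and 0.98 in MiaPaCa-2, which turned to -0.21 and -0.28 on the ERCC scale. Of the 7 core subunits 6 rose in each line, with medians of 0.71 and 0.98, and of the 27 supernumerary subunits 23 rose, with medians of 0.97 and 0.98. NDUFS6, a supernumerary subunit of the peripheral arm, had the highest response of complex I in BxPC-3. Its level there was 93.8, 99.2 and 100.1 scaled units in the DMSO libraries and 241, 260.1 and 271 in the THZ1 libraries, a difference of 1.39 ± 0.10 (SE; adjusted p = 9.73e-09). In MiaPaCa-2 NDUFS6 went from 66.9, 62.7 and 59.8 to 156, 137 and 138, a difference of 1.17 ± 0.10. The DMSO and THZ1 libraries did not overlap in either line. NDUFS5, another supernumerary subunit, differed by 1.29 ± 0.09 and 1.19 ± 0.09. NDUFA10 of the membrane arm differed by 0.97 ± 0.06 and 0.83 ± 0.06, and NDUFB11, also of the membrane arm, by 1.15 ± 0.23 and 1.23 ± 0.23.

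NDUFS1, the core subunit that holds several iron-sulfur clusters, rose less than most. Its levels were 84.8, 74.7 and 75.2 with DMSO and 109.8, 96.6 and 106 with THZ1 in BxPC-3, a difference of 0.41 ± 0.16 (adjusted p = 0.0341), and 116, 121 and 118 with DMSO and 164, 186 and 179 with THZ1 in MiaPaCa-2, a difference of 0.57 ± 0.16 (adjusted p = 0.00542). The groups did not overlap, but with equal sums the differences were -0.32 and -0.08 and on the ERCC scale -0.77 and -0.72.

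NDUFV3, a supernumerary subunit at the NADH-oxidising end of complex I, went the other way. In BxPC-3 it measured 40.9, 40.4 and 42.0 scaled units in the DMSO libraries and 22.7, 22.1 and 26.7 in the THZ1 libraries, a difference of -0.76 ± 0.15 (adjusted p = 0.000453). With THZ1 every library was below every DMSO library, and the difference was negative too with equal sums (-1.47) and on the ERCC scale (-1.90). In MiaPaCa-2 the levels were 64.2, 61.3 and 62.5 with DMSO and 52.9, 51.9 and 50.7 with THZ1, again without overlap, with a difference of -0.27 ± 0.15 that did not pass (adjusted p = 0.148) but did pass as lower with equal sums (-0.91) and on the ERCC scale (-1.54). The difference between the 2 lines' responses, 0.49 ± 0.22, did not pass either (adjusted p = 0.156). That difference did pass with equal sums (0.56, adjusted p = 0.0274), TMM factors (0.63, adjusted p = 0.0125) and edgeR (0.61, adjusted p = 0.0193). On the ERCC scale it did not (0.36, adjusted p = 0.409). PANC-1 had 49.7, 32.2 and 27.6 with DMSO and 34.7, 26.6 and 30.2 with THZ1, with overlapping groups. Since 1 fit shares the spread of all groups, this wider PANC-1 spread enters the SEs given for BxPC-3 and MiaPaCa-2 too. With all libraries the PANC-1 response stood 0.55 ± 0.22 above that of BxPC-3 (adjusted p = 0.0524). It passed as higher with equal sums (1.26) and on the ERCC scale (1.41). The mRNA of NDUFV3 is long for a subunit, 3125 bases in the gene models against a median of 750.

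Complex II, succinate dehydrogenase, links the respiratory chain to the tricarboxylic acid cycle and has no subunit made in the mitochondrion. All 4 subunits rose in both lines on the deposited scale, with medians of 0.95 and 0.95 that turned to -0.23 and -0.33 on the ERCC scale. SDHA, the flavoprotein that oxidises succinate, measured 218, 225 and 228 with DMSO and 397, 398 and 392 with THZ1 in BxPC-3 and 253, 237 and 243 with DMSO and 489.8, 463 and 472 with THZ1 in MiaPaCa-2. Its replicates spread little, and the differences of 0.82 ± 0.06 and 0.96 ± 0.06 carried adjusted p = 1.54e-08 and 6.12e-09. SDHB, the iron-sulfur subunit, differed by 1.07 ± 0.06 and 0.99 ± 0.06, and SDHC, a membrane anchor, by 1.07 ± 0.08 and 0.90 ± 0.08. SDHD, the other anchor, whose promoter has 2 overlapping NRF1 cores, measured 97.5, 99.9 and 96.8 with DMSO and 177, 177 and 171 with THZ1 in BxPC-3, a difference of 0.83 ± 0.16. In MiaPaCa-2 SDHD differed by 0.95 ± 0.16. The differences of these 4 genes in BxPC-3 and MiaPaCa-2 lay between 0.82 and 1.07.

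Complex III, the cytochrome bc1 complex, had all 8 of its listed subunits called higher in both lines on the deposited scale, with medians of 1.09 and 1.02 against -0.09 and -0.25 on the ERCC scale. UQCRH, the acidic hinge subunit that meets cytochrome c1, measured 172, 199.7 and 194 scaled units in the DMSO libraries and 452, 460.2 and 448 in the THZ1 libraries of BxPC-3, a difference of 1.26 ± 0.08 (adjusted p = 1.85e-09). In MiaPaCa-2 it measured 172, 165 and 169 with DMSO and 361, 345 and 379 with THZ1, a difference of 1.09 ± 0.08. UQCRC1, a core protein on the matrix side, differed by 1.16 ± 0.10 and 1.16 ± 0.10, and UQCR10, a small subunit, by 0.88 ± 0.17 and 1.00 ± 0.17.

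UQCRFS1, the Rieske iron-sulfur protein that carries electrons from ubiquinol towards cytochrome c1, was the complex III member that responded least. It went from 98.5, 109 and 107 to 143, 136 and 147 in BxPC-3, a difference of 0.43 ± 0.07 (adjusted p = 0.000114), and from 105, 97.1 and 98.5 to 180.3, 171 and 164 in MiaPaCa-2, a difference of 0.77 ± 0.07 (adjusted p = 3.11e-07). The direction in BxPC-3 turned with equal sums, -0.29, where it was called lower, and on the ERCC scale, -0.75. In the fit of all 6 groups UQCRFS1 was also the 1 subunit whose response was called different between BxPC-3 and MiaPaCa-2. The response was larger in MiaPaCa-2 by 0.34 ± 0.11 (adjusted p = 0.0418). That call was lost on the ERCC scale (0.24, adjusted p = 0.588), with DESeq2 factors (0.43, adjusted p = 0.0677), with the replicate number as a block and when any 1 of 11 of the 18 libraries was left out. It held with equal sums (0.42, adjusted p = 0.0234) and TMM factors (0.49, adjusted p = 0.021). On recovered reads it held with edgeR (0.44, adjusted p = 0.0222) and DESeq2 (0.42, adjusted p = 0.00671). With each of the 18 left out in turn the value ran from 0.31 to 0.39 and the adjusted p from 0.00282 to 0.107.

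Complex IV, cytochrome c oxidase, had the highest median in both lines on the deposited scale, 1.21 in BxPC-3 with 10 of 12 subunits higher and 1.09 in MiaPaCa-2 with 11 higher and 1 lower; on the ERCC scale these medians were 0.02 and -0.15. NDUFA4 measured 91.8, 96.0 and 89.4 scaled units in the DMSO libraries and 230.4, 229.8 and 232 in the THZ1 libraries of BxPC-3 and 58.8, 58.0 and 58.9 with DMSO and 138, 131 and 141 with THZ1 in MiaPaCa-2. The differences, 1.31 ± 0.07 and 1.21 ± 0.07 (adjusted p = 5.38e-10 and 2.45e-09), were many times the spread between replicates. COX6C, a small membrane subunit, differed by 1.31 ± 0.13 and 1.23 ± 0.13, and COX7B, another, by 1.11 ± 0.11 and 1.08 ± 0.11. COX6B1, on the intermembrane side, measured 157, 167 and 168 with DMSO and 348, 386 and 399 with THZ1 in BxPC-3 and 76.9, 72.0 and 71.5 with DMSO and 187, 165 and 175 with THZ1 in MiaPaCa-2. Its differences were 1.20 ± 0.28 and 1.25 ± 0.28. COX5B, on the matrix side, differed by 1.04 ± 0.19 and 1.14 ± 0.19. The SEs of COX5B and COX6B1 exceed that of NDUFA4, and 1 fit shares the spread of all 6 groups, PANC-1 DMSO among them, where COX6B1 measured 401, 139 and 127.

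Several complex IV subunits have a tissue isoform, and the pairs in the table were unequal in level. COX7A2, the widely expressed form, measured 54.5 ± 4.26 scaled units (SD, n = 3) in BxPC-3 DMSO, and COX7A1, the form of heart and skeletal muscle, 2.18 ± 0.295. Per kilobase of mRNA this was 114 against 3.73. COX7A2 rose by 1.28 ± 0.11 in BxPC-3 and 1.10 ± 0.11 in MiaPaCa-2. COX7A1 measured 2.63, 2.80 and 3.48 with DMSO and 1.74, 2.41 and 1.26 with THZ1 in MiaPaCa-2, a difference of -0.52 ± 0.19 (adjusted p = 0.0266), with every THZ1 library below every DMSO library. In BxPC-3 COX7A1 differed by 0.07 ± 0.19 (adjusted p = 0.783), and the difference between these responses did not pass, at -0.58 ± 0.26 (adjusted p = 0.17). COX7A1 rests on 12 to 65 reads per library. COX6B2, the testis form beside COX6B1, had 4 to 42 reads. It passed as higher in MiaPaCa-2 (0.73 ± 0.18, adjusted p = 0.00288), while in BxPC-3 the difference was 0.29 ± 0.18 (adjusted p = 0.185). COX6A1 differed by 1.25 ± 0.29 and 1.05 ± 0.29. COX6A2 and COX7B2, the other forms of COX6A1 and COX7B, were not analysed here.

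Complex V, the ATP synthase, had 14 of its 15 tested subunits called higher in BxPC-3 and all 15 in MiaPaCa-2 on the deposited scale, with medians of 1.07 and 0.98 against -0.12 and -0.29 on the ERCC scale, where 0 passed in either direction. ATP5B, the catalytic β subunit, was the most abundant subunit transcript of all, and measured 926, 958 and 981 scaled units in the DMSO libraries and 2258, 2309 and 2270.0 in the THZ1 libraries of BxPC-3, a difference of 1.25 ± 0.08 (adjusted p = 3.6e-09). In MiaPaCa-2 it measured 591, 582 and 583 with DMSO and 1328, 1301 and 1310.0 with THZ1, a difference of 1.16 ± 0.08. ATP5E, the ε subunit of the central stalk, had the highest difference of complex V in both lines, 1.35 ± 0.18 and 1.23 ± 0.18. ATP5J2, the f subunit of the membrane part, differed by 1.12 ± 0.30 and 0.98 ± 0.30, and ATP5L, the g subunit, by 1.19 ± 0.19 and 1.06 ± 0.19. The exons of ATP5J2 overlap those of PTCD1 on the same strand, so reads of the 2 genes could not be told apart there.

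ATP5G1, ATP5G2 and ATP5G3 encode the same mature protein, the c subunit that forms the rotating ring, behind different import sequences. On the deposited scale their responses were of like size: 1.01 ± 0.19, 1.02 ± 0.18 and 1.07 ± 0.09 in BxPC-3, and 0.97 ± 0.19, 0.98 ± 0.18 and 1.09 ± 0.09 in MiaPaCa-2; on the ERCC scale they were -0.17, -0.16 and -0.12, and -0.31, -0.30 and -0.20. The ATP5G2 stretch printed above has the NRF1 core and the ATP5G1 stretch has not. These 3 genes differed in the lines' starting levels, described further below.

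**Figure D3:**
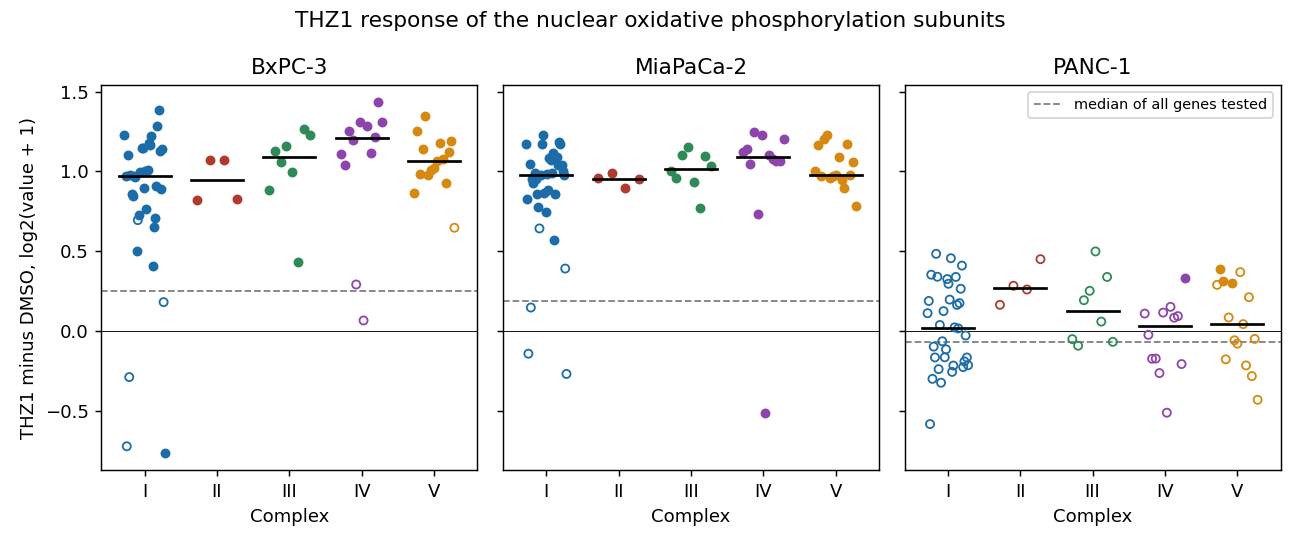
Log2 difference, THZ1 minus DMSO, of each tested subunit on the deposited scale, by complex and line; filled points passed an adjusted p of 0.05, open points did not, black bars are medians and the dashed line is the median of all genes tested. Nearly all subunits lie above the dashed line in BxPC-3 and MiaPaCa-2 (68 and 69 of 73), where the values above 0 turn to medians of -0.14 and -0.27 on the ERCC scale, and PANC-1 points lie around 0.

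The subunits not called in either of these lines were few and mostly of low counts. NDUFA9, NDUFV2, NDUFA13 and NDUFA11, singled out here after their values were seen, passed in neither line on the deposited scale. NDUFV2, a core subunit with an iron-sulfur cluster, had 7 to 54 reads per library and NDUFA13, also known as GRIM-19, 6 to 92. For NDUFA9 the range was 51 to 151 and for NDUFA11 58 to 263. Per kilobase the 4 had mean DMSO levels of 1.23 (NDUFA9), 1.63 (NDUFV2), 2.31 (NDUFA13) and 4.42 scaled units (NDUFA11), against 160.0 for the core subunit NDUFS8. In the gene models the exons of all 4 overlap another gene's, those of NDUFA13 the exons of YJEFN3. NDUFA9 differed by 0.69 ± 0.32 in BxPC-3 and 0.64 ± 0.32 in MiaPaCa-2, with every THZ1 library above every DMSO library in both, and by -0.37 and -0.41 on the ERCC scale. NDUFA11 differed by -0.72 ± 0.34 and -0.14 ± 0.34, NDUFA13 by -0.29 ± 0.19 and 0.15 ± 0.19, and NDUFV2 by 0.18 ± 0.22 and 0.39 ± 0.22. NDUFA11 did pass as lower in BxPC-3 on the other scales and with the count tools, among them equal sums (-1.35, adjusted p = 0.000952), the ERCC scale (-1.70) and edgeR (-1.15, adjusted p = 0.00686), and in MiaPaCa-2 with equal sums (-0.73) and on the ERCC scale (-1.33). For NDUFA13 the calls of lower in BxPC-3 came with equal sums (-0.63), with TMM (-0.49) and on the ERCC scale (-0.79), and in MiaPaCa-2 on the ERCC scale (-0.87). ATP5O, the stalk subunit that confers sensitivity to oligomycin, passed in MiaPaCa-2 (0.78 ± 0.29, adjusted p = 0.0324) and missed in BxPC-3 (0.65 ± 0.29, adjusted p = 0.069). Scaled to ERCC totals, ATP5O differed by -0.43 and -0.45 in these lines. The SEs come from 1 fit that shares the spread of all 6 groups, PANC-1 DMSO among them. Per kilobase the PANC-1 DMSO libraries had 2.91, 0.715 and 0.655 for NDUFA9 and 7.99, 1.78 and 1.82 for NDUFA11. ATP5O had 24.6, 8.94 and 6.94 there, while NDUFV2 (1.36, 1.10 and 0.932) and NDUFA13 (1.34, 1.30 and 1.61) spread less. The part of this spread in the missed calls was not tested.

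The rows that share a subunit's name had smaller differences than the subunit median. ATP5S differed by 0.54 ± 0.11 in BxPC-3 and 0.21 ± 0.11 in MiaPaCa-2, and ATP5SL by 0.53 ± 0.12 and 0.52 ± 0.12. Of the 7 pseudogenes only 2 passed the filter. ATP5EP2 differed by 0.82 ± 0.24 and 0.39 ± 0.24 at a mean level of 0.747 scaled units, and UQCRFS1P1 by 0.50 ± 0.21 and 0.66 ± 0.21 at 7.84. Subunit genes have many processed copies: GENCODE 29 names 17 pseudogenes after COX6C, 12 each after NDUFA5 and NDUFB4, and 7 each after COX6B1 and ATP5G1. How reads that match a gene and its copies were counted is not given in the sources used here, so the levels of such genes are uncertain to that extent.

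In PANC-1 the same exposure gave few calls. Of the 73 subunits 4 passed as higher and 0 as lower, where 0.274% and 0.228% of all genes did, and the median was 0.06 against -0.07 for all genes. At an unadjusted p under 0.05 the counts were 25 higher and 1 lower. The share of all genes at that unadjusted threshold is not given here. For 19 subunits the THZ1 libraries lay above the DMSO libraries, where 8.34% of all genes did so. DESeq2 on the recovered reads called 14 higher (2.44% of all genes) and edgeR 0 (0.0456%). On the ERCC scale the subunit median was -0.22, with 0 called higher and 2 lower (0.0323% and 18.4% of all genes). Complex medians were 0.02, 0.27, 0.13, 0.03 and 0.04 for complexes I to V. Without DMSO replicate 1 they were 0.25, 0.18, 0.31, 0.29 and 0.27, so that complex II went from the highest to the lowest.

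The 4 that passed were ATP5B, ATP5C1 and ATP5F1 of complex V and NDUFA4 of complex IV. ATP5B measured 561, 729.7 and 683 scaled units in the DMSO libraries and 891, 802 and 882 in the THZ1 libraries, a difference of 0.39 ± 0.08 (adjusted p = 0.0499). NDUFA4 measured 88.6, 101 and 92.4 with DMSO and 126, 109.8 and 120.1 with THZ1, a difference of 0.33 ± 0.07 (adjusted p = 0.0499). The THZ1 libraries lay above the DMSO libraries for both genes, and both stood just inside the threshold. ATP5C1, the γ subunit, differed by 0.31 ± 0.06 and ATP5F1, the b subunit, by 0.30 ± 0.06; on the ERCC scale all 4 lay between 0.02 and 0.11. NDUFS6 had 76.7, 97.2 and 85.5 with DMSO and 131, 102 and 113 with THZ1, no overlap, and a difference of 0.41 ± 0.10 that missed (adjusted p = 0.0719).

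The number called in PANC-1 hung on single DMSO libraries. Without replicate 1, 29 of the 73 passed as higher and 0 as lower, where 5.5% and 1.31% of all genes did, with a median of 0.26 against 0.02 for all genes. Without DMSO replicate 2 the counts were 16 higher and 0 lower, without replicate 3 18 and 1, and 0 were higher without any other 1 of the 18 libraries. The shares of all genes in these further fits are not given here. The 29 were 8 of complex I, 2 of complex II, 5 of complex III, 6 of complex IV and 8 of complex V. COX6B1 had PANC-1 levels of 401, 139 and 127 with DMSO, the first value standing far above the others, and 184, 147 and 182 with THZ1. Its difference was -0.17 ± 0.28 with all 3 DMSO libraries and 0.36 without the first (adjusted p = 0.0133). ATP5G1 went likewise from -0.06 to 0.29, and COX5B from -0.02 to 0.32. SDHD moved the other way, from 0.45 ± 0.16 to 0.16, its 3 DMSO values being 44.5, 82.1 and 80.6, with the first the lowest, and it passed in neither fit (adjusted p = 0.143 and 0.123).

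The difference between responses was tested directly. PANC-1 responded less than BxPC-3 in 63 of 73 subunits and less than MiaPaCa-2 in 63, with 0 greater in either case; of all genes, 30.8% were lower and 11.9% higher against BxPC-3, and 27.4% and 11.6% against MiaPaCa-2. The median differences were -0.93 and -0.96, against -0.32 and -0.24 for all genes. Without PANC-1 DMSO replicate 1 the counts were 67 lower and 2 higher (39.3% and 16.8% of all genes), and 66 lower and 0 higher (35.4% and 17.4%). These counts rest on the deposited scale. With equal sums 8 were lower and 2 higher against BxPC-3 (5.08% and 30.8% of all genes) and 12 lower and 1 higher against MiaPaCa-2 (4.98% and 30.5%). On the ERCC scale 0 were lower and 1 higher against BxPC-3 (1.54% and 28.6%), and 1 lower and 2 higher against MiaPaCa-2 (1.54% and 41.8%). The distance of the subunit median from the median gene changed less. It was -0.62 and -0.72 on the deposited scale and -0.44 and -0.55 on the ERCC scale, and equal sums, TMM and DESeq2 factors lay between. The 2 comparisons share the PANC-1 libraries.

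The response of NDUFA4 in PANC-1 differed by -0.98 ± 0.10 from that in BxPC-3 (adjusted p = 2.88e-06) and by -0.88 ± 0.10 from that in MiaPaCa-2 (adjusted p = 1.37e-05), and without DMSO replicate 1 by -1.02 and -0.92. For SDHB the differences were -0.79 ± 0.09 and -0.71 ± 0.09, for SDHA -0.66 ± 0.09 and -0.79 ± 0.09, and for NDUFA10 -0.78 ± 0.09 and -0.64 ± 0.09. On the ERCC scale the sign turned for SDHB (0.11 and 0.29), SDHA (0.25 and 0.22) and NDUFA10 (0.12 and 0.36), and for NDUFA4 against MiaPaCa-2 (0.12) but not BxPC-3 (-0.08). In the fit of all 6 groups BxPC-3 and MiaPaCa-2 differed from each other in 1 subunit, UQCRFS1. Of all genes, 6.14% were called higher in MiaPaCa-2 and 7.66% lower. The median difference of the 73 was -0.03, against -0.06 for all genes. On recovered reads 4 subunits were higher and 0 lower with edgeR (7.71% and 4.9% of all genes) and with DESeq2 (8.64% and 6.68%). With the compared groups alone more were called, in both directions. A subunit that was not called is not thereby shown to respond alike.

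The 3 lines started from different levels of single subunits. Per kilobase of mRNA, with DMSO, ATP5B had the highest mean level over the lines at 398 scaled units, followed by UQCRH at 292, COX6B1 at 270.4, COX5A at 182 and ATP5G1 at 172. The lowest were NDUFA9 at 1.23 and COX6B2 at 0.773. Without PANC-1 DMSO replicate 1, in which ATP5G1 and COX6B1 were high, ATP5G1 fell from the fifth place to below ATP5G3, with means of 145 and 149, and COX6B1 stayed in the third at 218. Among the subunits of complex II, which are present in equal numbers in the enzyme, the means were 142 for SDHC, 93.8 for SDHA, 85.2 for SDHD and 85.1 for SDHB.

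Between DMSO groups on the deposited scale, 18 subunits were higher and 27 lower in MiaPaCa-2 than in BxPC-3, where 37.5% and 25.1% of all genes were; on the ERCC scale the balance turned, to 29 higher and 10 lower (49.9% and 15.3%). PANC-1 had 17 higher and 14 lower than BxPC-3 (33.7% and 25.4% of all genes), 12 and 20 with TMM factors (28.7% and 31.3%), and 16 and 30 without DMSO replicate 1 (36.7% and 32.9%). Against MiaPaCa-2, PANC-1 had 27 higher and 18 lower (28% and 32.8%), 18 and 25 on the ERCC scale (19.5% and 41.2%), and 31 and 25 without DMSO replicate 1 (29.2% and 41.6%). On the deposited scale complex IV had the DMSO median farthest from 0 between MiaPaCa-2 and either other line. On the ERCC scale this did not hold between MiaPaCa-2 and BxPC-3, where the complex I median lay farther from 0, on the higher side. In MiaPaCa-2, 7 of its 12 subunits were lower and 1 higher than in BxPC-3, with a median of -0.70 (-0.33 on the ERCC scale), and PANC-1 had 8 higher and 1 lower than MiaPaCa-2, with a median of 0.79 (8 higher, 2 lower and 0.66 without DMSO replicate 1).

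NDUFB11, a membrane-arm subunit encoded on the X chromosome, had the largest DMSO difference between BxPC-3 and MiaPaCa-2. Its DMSO levels were 39.3, 46.8 and 45.9 in BxPC-3, 165, 151 and 152 in MiaPaCa-2 and 148, 63.7 and 56.6 in PANC-1, so MiaPaCa-2 stood 1.81 ± 0.23 above BxPC-3 (adjusted p = 3.4e-06). COX6B1 was lower in MiaPaCa-2, at -1.15 ± 0.28. COX6B1 had 157, 167 and 168 in BxPC-3 and 76.9, 72.0 and 71.5 in MiaPaCa-2. Against BxPC-3, PANC-1 differed by 0.23 ± 0.28 in COX6B1 with all libraries and by -0.30 without DMSO replicate 1, where the call was lower.

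The genes of subunit c differed between lines while their responses did not pass as different between BxPC-3 and MiaPaCa-2. ATP5G1 measured 47.5, 50.5 and 50.9 in BxPC-3 DMSO, 59.8, 58.3 and 57.4 in MiaPaCa-2 and 259, 133 and 119 in PANC-1. PANC-1 thus stood above BxPC-3 by 1.67 ± 0.19 (adjusted p = 1.09e-06) and above MiaPaCa-2 by 1.44 ± 0.19, or by 1.33 and 1.09 without DMSO replicate 1, whose value was the highest of the group. ATP5G2 was higher in PANC-1 too, by 0.89 ± 0.18 and 1.30 ± 0.18 (0.58 and 0.98 without it). ATP5G3 was lower in PANC-1, with differences of -0.30 ± 0.09 from BxPC-3 and -0.52 ± 0.09 from MiaPaCa-2 (-0.19 and -0.41 without it, adjusted p = 0.0117 and 5.95e-06). Per kilobase, ATP5G3 was the highest of the 3 in BxPC-3 (147, with 92.0 for ATP5G1 and 74.6 for ATP5G2) and in MiaPaCa-2 (172, 108 and 56.0). In PANC-1 the means were 120.3, 316 and 146, with ATP5G3 the lowest, but without DMSO replicate 1 they were 129, 234 and 112, with ATP5G2 the lowest. The promoter stretch of ATP5G2 with its NRF1 core and that of ATP5G1 without one belong to the pair that was higher in PANC-1 than in the other lines with all libraries.

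ATP5L, the g subunit, measured 35.5, 39.9 and 37.0 in BxPC-3 DMSO, 20.8, 19.7 and 19.7 in MiaPaCa-2 and 90.3, 46.3 and 42.3 in PANC-1, so that PANC-1 was above MiaPaCa-2 by 1.44 ± 0.19 (1.10 without DMSO replicate 1). In the same contrast COX6B1 differed by 1.38 ± 0.28 (0.85 without it). NDUFA5, a supernumerary subunit of the peripheral arm, was lower in PANC-1 than in BxPC-3, with a difference of -1.06 ± 0.13 (-0.85 without it), and NDUFB8 of the membrane arm was higher by 1.08 ± 0.23 (0.67 without it). Both had THZ1 responses in BxPC-3 and MiaPaCa-2, of 0.85 ± 0.13 and 0.99 ± 0.13 for NDUFA5 and 1.16 ± 0.23 and 0.99 ± 0.23 for NDUFB8.

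The 4 genes of complex II each had their own order of lines. SDHA measured 218, 225 and 228 in BxPC-3 DMSO, 253, 237 and 243 in MiaPaCa-2 and 129, 129 and 116 in PANC-1; the first 2 lines did not pass as different (0.13 ± 0.06), and PANC-1 differed from them by -0.84 ± 0.06 and -0.96 ± 0.06. SDHC was highest in MiaPaCa-2, by 0.83 ± 0.08 above BxPC-3. SDHD was highest in BxPC-3, with MiaPaCa-2 differing by -0.87 ± 0.16 and PANC-1 by -0.55 ± 0.16 (-0.27 without DMSO replicate 1, still lower). SDHB varied least, with differences of -0.24 ± 0.06, -0.06 ± 0.06 and 0.19 ± 0.06, of which the first and last turned sign on the ERCC scale (0.13 and -0.11).

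**Figure D4:**
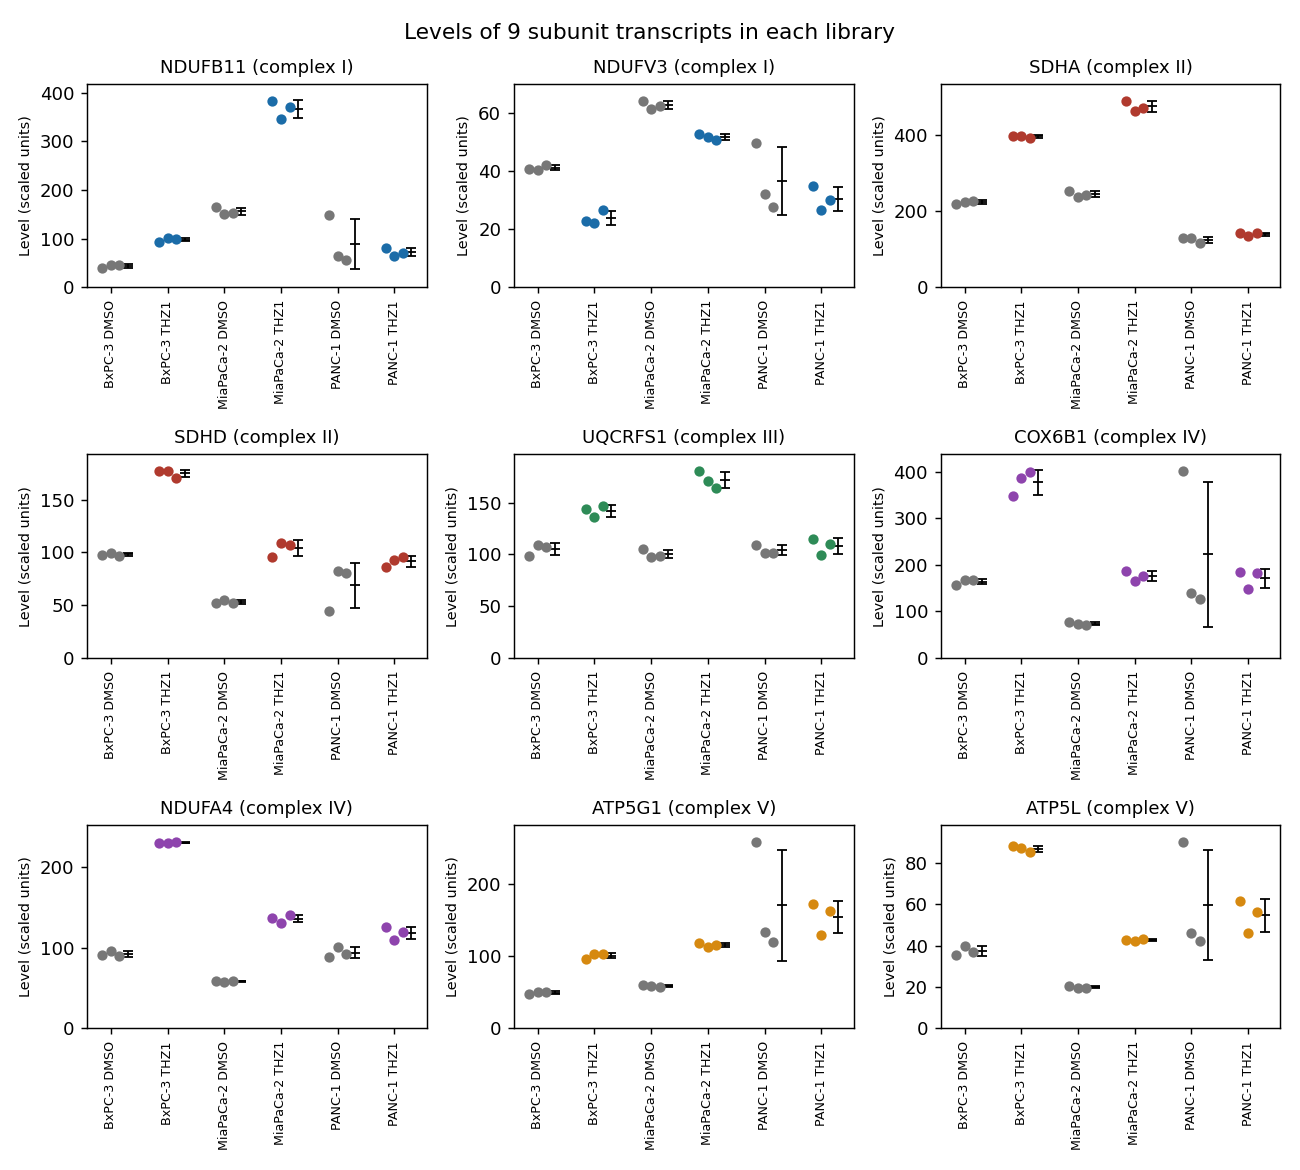
Levels in scaled units of 9 subunit transcripts in each of the 18 libraries; points are libraries, grey for DMSO and coloured by complex for THZ1, and bars give the group mean ± SD. NDUFB11, SDHA and ATP5G1 differ between lines with DMSO, NDUFV3 is lower with THZ1 in BxPC-3 where the other 8 are higher on this scale (most turn negative on the ERCC scale), and PANC-1 DMSO replicate 1 is the highest point of COX6B1 and ATP5G1 in its group.

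Genes of related function were followed in 5 lists. The first holds subunits whose symbols escape the pattern, such as COX4I1, NDUFC1 and CYC1. On the deposited scale 10 of its 10 tested genes rose in BxPC-3 and 9 in MiaPaCa-2, with medians of 0.96 and 0.89; COX4I1, the largest nuclear subunit of complex IV, differed by 1.26 and 1.10. All 13 subunits encoded in mitochondrial DNA, which are transcribed by the mitochondrial polymerase, rose in both lines, with medians of 1.26 and 1.19, and 2 of 13 in PANC-1, with a median of 0.60. Without PANC-1 DMSO replicate 1 all 13 passed in PANC-1, with a smaller median of 0.34, and with all libraries 0 passed there on the ERCC scale (median 0.32), with equal sums or with TMM factors. Of 13 genes of the tricarboxylic acid cycle 12 rose in each line, with medians of 0.89 and 0.88. Of all genes 40% and 36.5% were called higher. On the ERCC scale the medians in BxPC-3 and MiaPaCa-2 were -0.18 and -0.36 for the first list, 0.07 and -0.11 for the mitochondrially encoded subunits and -0.29 and -0.40 for the cycle, with 0 called higher in any of them. In PANC-1 DMSO replicate 1 the mitochondrially encoded transcripts took 1.95% of reads.

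Assembly factors, which help to build the complexes without being part of them, were mixed. In BxPC-3 25 of 43 rose and 5 fell (median 0.42), where 40% and 18.9% of all genes did. In MiaPaCa-2 28 rose and 3 fell (0.48), where 36.5% and 19.8% did. In PANC-1 0 passed (0.04), or 2 as higher without DMSO replicate 1 (0.09), where 5.5% of all genes did. With equal sums, of 42 tested, 5 rose and 18 fell in BxPC-3 (9.21% and 43% of all genes). In MiaPaCa-2 3 rose and 16 fell (9.35% and 43.1%). On the ERCC scale, of 43 tested, 0 rose and 29 fell in BxPC-3 (1.28% and 59.1% of all genes). In MiaPaCa-2 1 rose and 34 fell there (1.36% and 73.9%). The genes named next were chosen after their values were seen. SDHAF1, an assembly factor of complex II, fell in both lines, at -1.54 and -1.57 (adjusted p = 2.37e-08 and 3.34e-08), while the 4 subunits of complex II rose on the same scale. TACO1, which aids translation of the mitochondrial COX1 mRNA, fell by 1.13 in BxPC-3, and SURF1, a complex IV assembly factor, rose by 1.09 and 1.68.

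Regulators of the subunit genes leaned lower. Of 14 tested, 2 rose and 8 fell in BxPC-3 (median -0.49), 3 rose and 9 fell in MiaPaCa-2 (-0.43), and 0 passed in PANC-1 (-0.09; 1 as lower and -0.04 without DMSO replicate 1), where 18.9% and 19.8% of all genes were called lower in the first 2 lines. On the ERCC scale 13 and all 14 fell, with medians of -1.67 and -1.65, where 59.1% and 73.9% of all genes were called lower. Named after their values were seen, CREB1 fell, at -1.68 and -1.62, as did GABPB1, the partner chain of GABP (-0.99 and -0.77), and the coactivator PPARGC1B (-0.87 and -0.99). GABPA itself did not pass (0.03 and 0.29), and NRF1 passed as lower in MiaPaCa-2 (-0.38) and not in BxPC-3 (-0.08). YY1 rose by 1.13 and 0.79, and TFAM, which packages and transcribes mitochondrial DNA, by 0.57 and 0.66.

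**Figure D5:**
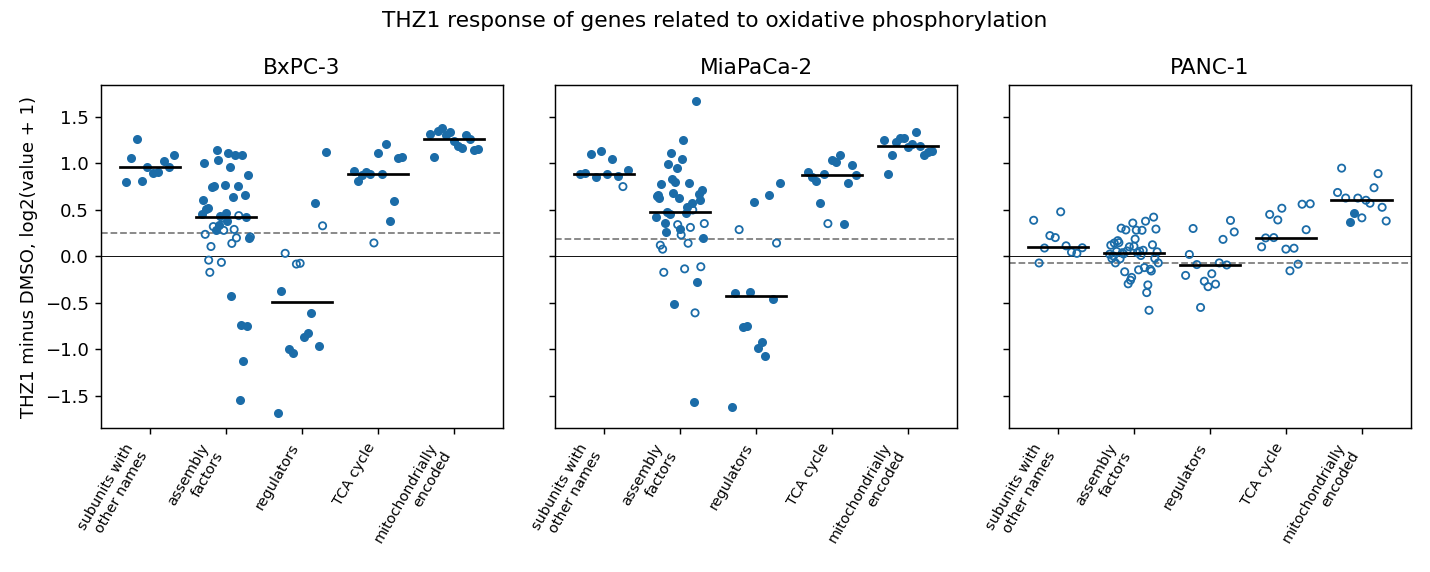
Log2 difference, THZ1 minus DMSO, on the deposited scale for the genes of 5 related lists, by line; filled points passed an adjusted p of 0.05, black bars are medians and the dashed line is the median of all genes tested. In BxPC-3 and MiaPaCa-2 the mitochondrially encoded subunits have the highest medians (1.26 and 1.19) and the regulators the lowest (-0.49 and -0.43); on the ERCC scale these medians are 0.07 and -0.11, and -1.67 and -1.65.

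The subunit genes are short. In GENCODE 29 the median mRNA length of the 73 was 750 bases against 2599 over 12274 matched genes, and 3.41% of those genes were shorter than the subunit median. The median gene spanned 12528 bases against 33160, with 4 exons against 9. Within the 73, the response in BxPC-3 and mRNA length gave Spearman's rho of -0.338 and Pearson's r of -0.394, in MiaPaCa-2 -0.208 and -0.269, and in PANC-1 0.221 and 0.151, which turned to -0.261 and -0.204 without DMSO replicate 1. Over all matched genes and with all libraries rho was -0.189, -0.296 and 0.002. These are correlations across genes that share libraries and are not independent, so they describe the set and carry no test. The part of transcript length, gene span or RNA quality in the responses was not tested.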

How the data were processed

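PolyA RNA of 18 libraries (3 lines, THZ1 or DMSO, 3 libraries a group) was read from 1 deposited table. Reads were aligned with STAR to hg19, per the submitters' processing notes; the sources used here do not give the counter, annotation or scaling. The authors deposited a signal per gene, which is not a count: it equals whole reads divided by 1 whole number per library (112 to 437), so whole reads were recovered for 100% of values (tolerance 0.001, largest deviation 0.000112). Rows named as dates (22) and 38 ERCC rows stayed out of the tests. The deposited signal was multiplied by 17.6795, so that the mean library sums to 1000000 scaled units.

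Genes at 1 or more in at least 3 libraries were tested with limma 3.58.1 (trend, log2(value + 1), 6 group means, R 4.3.3), adjusted by Benjamini-Hochberg, threshold 0.05. Mean log2 ratios over the lines that the authors deposited beside the signal were not used. On the recovered reads edgeR called 4111 genes higher and 4391 lower in BxPC-3, 4170 genes higher and 4049 lower in MiaPaCa-2 and 7 genes higher and 12 lower in PANC-1. On simulated libraries with 1 common dispersion, changed in BxPC-3 with THZ1 only, the fit called all or most changed genes at each fold size. No simulated library stood apart as PANC-1 DMSO replicate 1 does, so power in the real fit, and in PANC-1, was not measured. Where nothing else is known of the triplicates, p-values measure the spread between these libraries. Alternatives were 4 other scales, 2 pseudocounts, no filter and a filter of 5, the compared groups alone, the replicate number as a block, edgeR 4.0.16 and DESeq2 1.42.0 on recovered reads, and each library left out. mRNA lengths are the median over protein-coding GENCODE 29 transcripts, matched by symbol for all 73 subunits; promoters are from RefSeq.

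Members and lists were chosen with earlier results of these data known. Named members are, per complex, the 2 highest and 2 lowest mean responses at a mean level of at least 20, the 3 smallest p between responses and the 3 largest DMSO differences per pair of lines, all called lower with THZ1, and SDHA to SDHD, NDUFA4, ATP5G1 to ATP5G3 and the COX isoform pairs; others are named as chosen afterwards. A member that the rule also names is not reported here.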

Additional observations from a re-analysis of the deposited data

Results flagged for a closer look

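These results are set apart because a test of the difference itself found the THZ1 response unequal between lines. Counted over the 73 subunits, 1 had a larger response in MiaPaCa-2 than in BxPC-3, 63 had a smaller response in PANC-1 than in BxPC-3, and 63 had a smaller response in PANC-1 than in MiaPaCa-2. The 3 counts were 0, 0 and 1 on the ERCC scale, and 5, 67 and 66 without PANC-1 DMSO replicate 1.

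The subunit of the first count is UQCRFS1, the Rieske protein, at 0.34 ± 0.11 (SE; adjusted p = 0.0418, limma). It did not pass on the ERCC scale (adjusted p = 0.588), with the replicate block (0.055), with DESeq2 factors (0.0677) or when any 1 of 11 of the 18 libraries was left out. It did pass with equal sums (0.0234), TMM factors (0.021), and edgeR (0.0222) and DESeq2 (0.00671) on recovered reads. Of PANC-1 against BxPC-3, the smallest p-values belonged to NDUFA4 at -0.98 (adjusted p = 2.88e-06), NDUFA10 at -0.78 (5.52e-06) and SDHB at -0.79 (7.74e-06). Of PANC-1 against MiaPaCa-2 they belonged to SDHA at -0.79 (1.21e-05), NDUFA4 at -0.88 (1.37e-05) and SDHB at -0.71 (3.51e-05). The values without PANC-1 DMSO replicate 1 were -1.02, -0.78 and -0.80 against BxPC-3, and -0.77, -0.92 and -0.72 against MiaPaCa-2.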

How the results depend on the processing

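Counts below are subunits called higher or lower of those tested. In BxPC-3 (65 higher, 1 lower) the ERCC scale gave 0 and 11, equal sums 29 and 5, TMM factors 3 lower, and DESeq2 factors, the compared groups alone, the replicate block, edgeR and DESeq2 2 lower. In MiaPaCa-2 (67, 1) the ERCC scale gave 0 and 11, equal sums 38 and 3, TMM factors, DESeq2 factors, the compared groups alone, edgeR and DESeq2 2 lower, and a filter of 5 0 lower. In PANC-1 (4, 0) the ERCC scale gave 0 and 2; equal sums, TMM and DESeq2 factors, no filter, the compared groups alone, the replicate block and edgeR 0 higher; a pseudocount of 0.25 2, a filter of 5 7, and DESeq2 14.

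For the response of MiaPaCa-2 minus BxPC-3 (1, 0) the higher count was 0 in the fit to ERCC totals and with the replicate block, 2 with equal sums and DESeq2 factors, 3 with TMM, 4 with edgeR and DESeq2, and 8 with 6 lower in the compared groups alone. For PANC-1 minus BxPC-3 (0, 63) it was 1 with ERCC totals, TMM, DESeq2 factors, a filter of 5, the replicate block, edgeR and DESeq2, and 2 with equal sums; lower were 34 with TMM, 36 with DESeq2 factors, 39 with edgeR, 8 with equal sums and 0 with ERCC totals. For PANC-1 minus MiaPaCa-2 (0, 63) the ERCC scale gave 2 and 1, equal sums 1 and 12, and TMM 40 lower. Of DMSO groups, MiaPaCa-2 minus BxPC-3 (18, 27) gave 29 and 10 on the ERCC scale, and 9 higher with TMM, DESeq2 factors and edgeR, 11 with DESeq2 and 28 in the compared groups alone. PANC-1 minus BxPC-3 (17, 14) gave 10 and 23 with DESeq2 factors and 7 higher in the compared groups alone, where PANC-1 minus MiaPaCa-2 (27, 18) gave 17 and 11. The cause was not tested.

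With each library left out in turn the counts of higher and lower ran from 64 to 67 and 1 to 2 in BxPC-3, 64 to 68 and 0 to 2 in MiaPaCa-2, and 0 to 29 and 0 to 1 in PANC-1 (29 without DMSO replicate 1, 16 without replicate 2, 18 without replicate 3, 0 without any other). For the responses they ran from 0 to 5 and 0 to 2, 0 to 2 and 57 to 67, and 0 to 0 and 54 to 66, and for the DMSO groups from 14 to 25 and 25 to 37, 14 to 22 and 13 to 30, and 24 to 35 and 14 to 25. Whether the replicate numbers pair the samples could not be told, since deviations within a group of 3 constrain one another. Same-numbered deviations correlated at 0.086, 0.022 and -0.003 in BxPC-3, 0.140, 0.067 and 0.017 in MiaPaCa-2, and 0.454, 0.300 and -0.032 in PANC-1. In PANC-1 DMSO replicate 3 and THZ1 replicate 2, numbered differently, correlated at 0.496. With NDUFA4 in complex I, that complex took 0.201% and 0.245% of reads in BxPC-3 and 0.194% and 0.243% in MiaPaCa-2 (DMSO, THZ1), and complex IV 0.0906%, 0.125%, 0.0652% and 0.0912%, and 0.0940% in PANC-1 THZ1.

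Of the named subunits (between responses, the 3 smallest p per pair; between DMSO groups, those the rule names for them or by symbol), the values listed next turned sign and were called on the deposited scale or under the alternative, and others that turned were called in neither. When scaled to ERCC totals they were in BxPC-3 ATP5G1 -0.17, ATP5G2 -0.16, ATP5G3 -0.12, ATP5J2 -0.05, COX5B -0.14, COX6B2 -0.49, COX7A1 -0.71, COX7B -0.07, NDUFA10 -0.21, NDUFA5 -0.33, NDUFB11 -0.03, NDUFS1 -0.77, SDHA -0.37, SDHB -0.11, SDHC -0.10, SDHD -0.36, UQCR10 -0.28, UQCRC1 -0.03, UQCRFS1 -0.75, ATP5C1 -0.20, ATP5F1 -0.21; in MiaPaCa-2 ATP5B -0.13, ATP5E -0.05, ATP5G1 -0.31, ATP5G2 -0.30, ATP5G3 -0.20, ATP5J2 -0.29, ATP5L -0.19, COX5B -0.14, COX6A1 -0.13, COX6B1 -0.04, COX6C -0.05, COX7A2 -0.17, COX7B -0.20, NDUFA10 -0.46, NDUFA4 -0.07, NDUFA5 -0.27, NDUFB11 -0.06, NDUFB8 -0.23, NDUFS1 -0.72, NDUFS5 -0.10, NDUFS6 -0.11, SDHA -0.34, SDHB -0.29, SDHC -0.39, SDHD -0.32, UQCR10 -0.26, UQCRC1 -0.13, UQCRFS1 -0.51, UQCRH -0.20, NDUFA13 -0.87, ATP5C1 -0.31, ATP5F1 -0.33; in the response of PANC-1 minus BxPC-3 NDUFA10 0.12, SDHB 0.11, and of PANC-1 minus MiaPaCa-2 NDUFA4 0.12, SDHA 0.22, SDHB 0.29 (beside these 3 per pair, SDHA against BxPC-3 turned to 0.25 and NDUFA10 against MiaPaCa-2 to 0.36); and with DMSO SDHB at 0.13 (MiaPaCa-2 minus BxPC-3) and SDHB -0.11 (PANC-1 minus MiaPaCa-2). With equal sums they were COX7A1 -0.44, NDUFS1 -0.32, UQCRFS1 -0.29 in BxPC-3 and NDUFS1 -0.08 in MiaPaCa-2. Without PANC-1 DMSO replicate 1 they were ATP5G1 0.29, COX5B 0.32, COX6B1 0.36 in PANC-1 and COX6A1 -0.38, COX6B1 -0.30 in PANC-1 minus BxPC-3 with DMSO. Over all left-out libraries these ran from -0.25 to 0.32 for COX5B and -0.47 to 0.36 for COX6B1, -0.27 to 0.29 for ATP5G1, and with DMSO -0.38 to 0.50 for COX6A1 and -0.30 to 0.53 for COX6B1. Of the values of named subunits under an alternative, 4958 kept direction and side of the threshold, 238 lost the call, 116 gained it and 69 turned. Precision is limited by depth for members with few reads.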
